A study of Arabidopsis thaliana with 9 samples.

Results

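KNS4 (AT1G33430) encodes a galactosyltransferase needed for the pollen exine, and its level is described here in dissected Arabidopsis thaliana anthers. The gene was chosen by name, with earlier results of these data known. It is read by 1 probe set and is 1 of the 13355 genes that have a probe set of their own in the annotation used. The anthers were at stages 4 to 7 and came from young buds of plants 3 to 4 weeks old, grown at 22 °C with 16 hours of light. There were 3 genotypes with 3 arrays each: wild type (Col), the dyt1 mutant and the ams mutant. The labels call the 3 arrays of a genotype biological replicates. They name no allele of either mutant, and they do not say whether anthers of several plants were pooled. The values are log2 expression per probe set after RMA, a method that corrects background, equalises the arrays and summarises the probes of a set.

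KNS4, short for KAONASHI4, belongs to glycosyltransferase family GT31, whose plant members include enzymes that add galactose in beta-1,3 linkage. It is tied to the synthesis of type II arabinogalactan, the sugar part of arabinogalactan proteins at the cell surface. Pollen of kns4 mutants has an abnormal, thinner exine. The exine is the patterned sporopollenin outer wall of pollen; it is laid down on the primexine, a polysaccharide matrix around the young microspore. The tapetum, the innermost anther wall layer, supplies much of the exine's material, and the bHLH transcription factors DYT1 and AMS act in tapetal development, with AMS downstream of DYT1.

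The arrays did not fall apart by genotype alone. The control probe set for 25S ribosomal RNA was below 10 in 4 arrays (wild type 1 and 2, dyt1 1 and 3) and between 11.5 and 12.4 in the other 5 (wild type 3, dyt1 2 and all ams arrays). Actin's 3' signal exceeded its 5' signal, as it does in RNA that is less intact, by 1.04 to 1.38 (log2) in the first set and by 2.10 to 2.92 in the second. The spike-in RNAs averaged 3.85 and 3.76 in wild type 1 and 2 and 6.67 to 7.17 elsewhere. AMS itself stood at 7.93, 7.70 and 7.55 in wild type, at 5.66, 3.96 and 4.78 in dyt1 and at 9.61, 9.36 and 9.37 in the arrays labelled ams. The level in ams was thus the highest of the 3 genotypes. The labels place neither the probes nor the lesion within the gene, so this level does not check the ams label. DYT1 was not analysed here.

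KNS4 was highest in wild type, lower in the arrays labelled ams and lowest and most variable in dyt1. In wild type 1, 2 and 3 it stood at 13.14, 12.85 and 12.24. In ams 1, 2 and 3 it stood at 11.92, 10.45 and 11.06. In dyt1 1, 2 and 3 it stood at 10.90, 5.73 and 10.52. All 6 mutant arrays lay below all 3 wild-type arrays, as they did for 863 of the 22746 probe sets (3.79%). Taken singly, dyt1 lay wholly below wild type for 8.26% of probe sets and ams for 16.3%. The ams and dyt1 arrays overlapped, since dyt1 1 and 3 lay within the ams range; 12.4% of probe sets had all dyt1 values below all ams values. The group means on the log2 scale were 12.7 ± 0.46 (SD, n = 3) in wild type, 11.1 ± 0.74 in ams and 9.05 ± 2.88 in dyt1. Even in dyt1 2 the signal was above that array's lower quartile of 4.58, used here as the mark below which a signal counts as background. In wild type 1 the signal was near the array's highest value of 13.7. No array carried detection calls. In whole anthers, fewer tapetal or microspore cells and less KNS4 RNA per cell cannot be told apart.

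**Figure D1:**
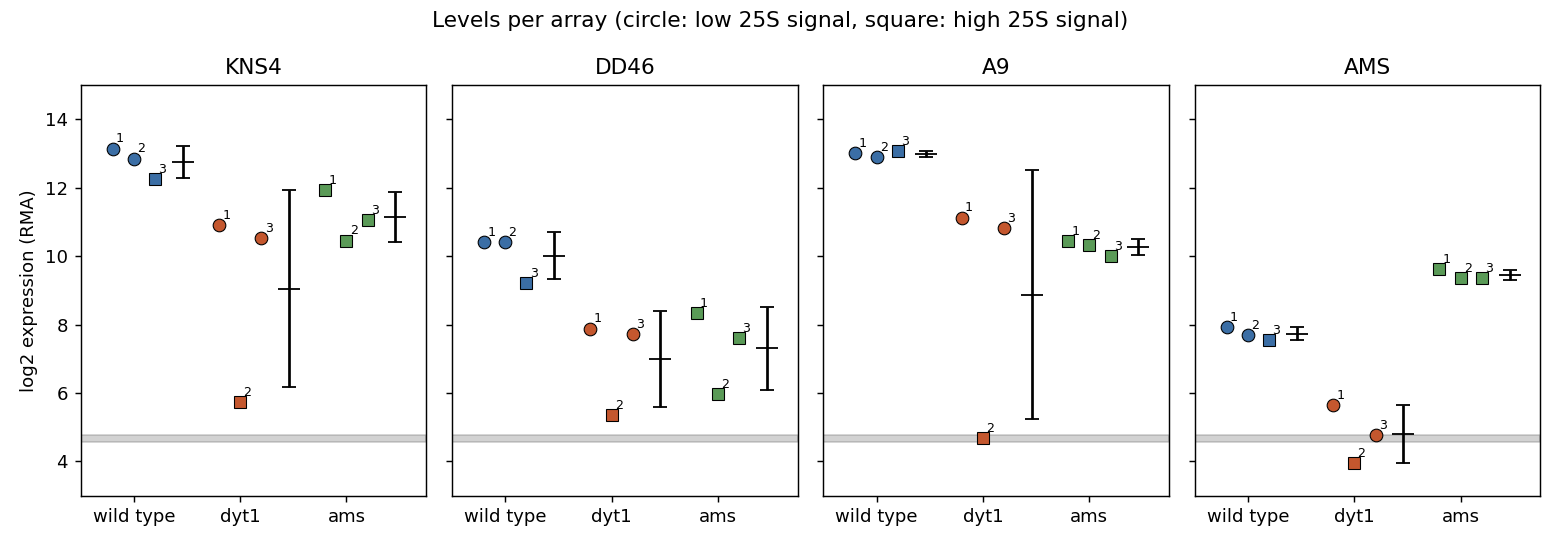
Levels of KNS4, its relative DD46, the tapetal gene A9 and AMS on each array (y axis, log2 expression after RMA). Points are single arrays with their replicate number, circles have low and squares high 25S signal, the bar is the group mean ± SD (n = 3) and the grey band spans the arrays' lower quartiles; for KNS4 the wild-type points lie at 12.24 or above and every mutant point at 11.92 or below, with dyt1 2 at 5.73.

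KNS4 was lower in dyt1 than in wild type by a log2 difference of -3.69. This is 12.9-fold as computed from the means of log2 values, which the low value of dyt1 2 pulls down. The difference had an SE of 1.19 and a 95% interval from -6.39 to -0.99. It did not pass limma's moderated test after adjustment over all probe sets (adjusted p = 0.224). The test called 44 probe sets in this comparison (0.193%), of which 27 were lower (0.119%) and 17 higher (0.0747%). By size it was the 39th most negative of 22746 differences, but only 1334th by p. The wide error comes with the spread inside dyt1: the SD of 2.88 was the 45th largest of all probe sets in that genotype, where the median SD was 0.23. Without dyt1 2 the difference was -2.03 (adjusted p = 0.0499), which passes by a narrow margin in a fit that called 702 probe sets.

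In ams the log2 difference from wild type was -1.60, or 3.03-fold, with a 95% interval from -4.30 to 1.10. It did not pass (SE 1.19, adjusted p = 0.467), in a comparison in which 798 probe sets were called (3.51%), 240 of them lower (1.06%) and 558 higher (2.45%). Its SE is set by the pooled spread, most of which comes from dyt1. Without dyt1 2 the same difference had an adjusted p of 0.0478, in a fit that called 1624 probe sets. With wild type and ams alone in the fit its adjusted p was 0.0896. The 2 mutants differed from each other by -2.09 (dyt1 minus ams, 95% interval -4.79 to 0.61, adjusted p = 0.344), and 7 of the 9 pairs of single arrays had dyt1 lower. In that comparison 1108 probe sets were called (4.87%), 551 of them lower (2.42%) and 557 higher (2.45%). This last difference rests on dyt1 2, since it was -0.43 without that array (adjusted p = 0.584).

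KNS4 was also tested on its own, though it was chosen with earlier results of these data known. The exact p-values below are not adjusted for that choice. An exact permutation test of the F ratio over all 1680 ways to place the 9 arrays in 3 genotypes gave p = 0.0143, where the smallest possible is 0.00357. The moderated F test over all probe sets did not pass (adjusted p = 0.178). Two-sided exact permutation tests of single pairs cannot go below 0.1 with 3 arrays against 3. The exact p was 0.1 for dyt1 and for ams against wild type (0.15 adjusted over the 3 pairs) and 0.3 for dyt1 against ams. When any wild-type or any ams array was left out, the exact 3-group p rose to between 0.0607 and 0.164.

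With the arrays split at a 25S signal of 11, KNS4 was lower in dyt1 in both sets, by unequal amounts. The low set was not uniform in 25S signal, which ran from 5.51 in wild type 1 to 9.59 in wild type 2. Among the 4 arrays of low signal it stood at 13.14 and 12.85 in wild type and at 10.90 and 10.52 in dyt1. The log2 difference there was -2.28 (limma on these 4 arrays, adjusted p = 0.00127), and spike-in level and genotype cannot be told apart in this set. In the high-signal set, dyt1 2 differed from wild type 3 by -6.51, each a lone array. A limma fit on the 5 high-signal arrays has to assume that the lone arrays vary like the ams arrays. The mean of the ams arrays, all of high signal, differed from wild type 3 by -1.09 (adjusted p = 0.291). With the 25S set as a block, the ams difference turned to 0.31 (adjusted p = 0.886), while that in dyt1 stayed at -3.69 (adjusted p = 0.0717). Because 1 of 3 arrays was of high signal in both wild type and dyt1, such a block leaves the dyt1 estimate in place. No ams array was of low signal, so the shift applied to ams comes from wild type and dyt1 alone. That shift includes dyt1 2, at 5.73 against 10.90 and 10.52 in dyt1 1 and 3, so the block cannot settle the ams difference.

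**Figure D2:**
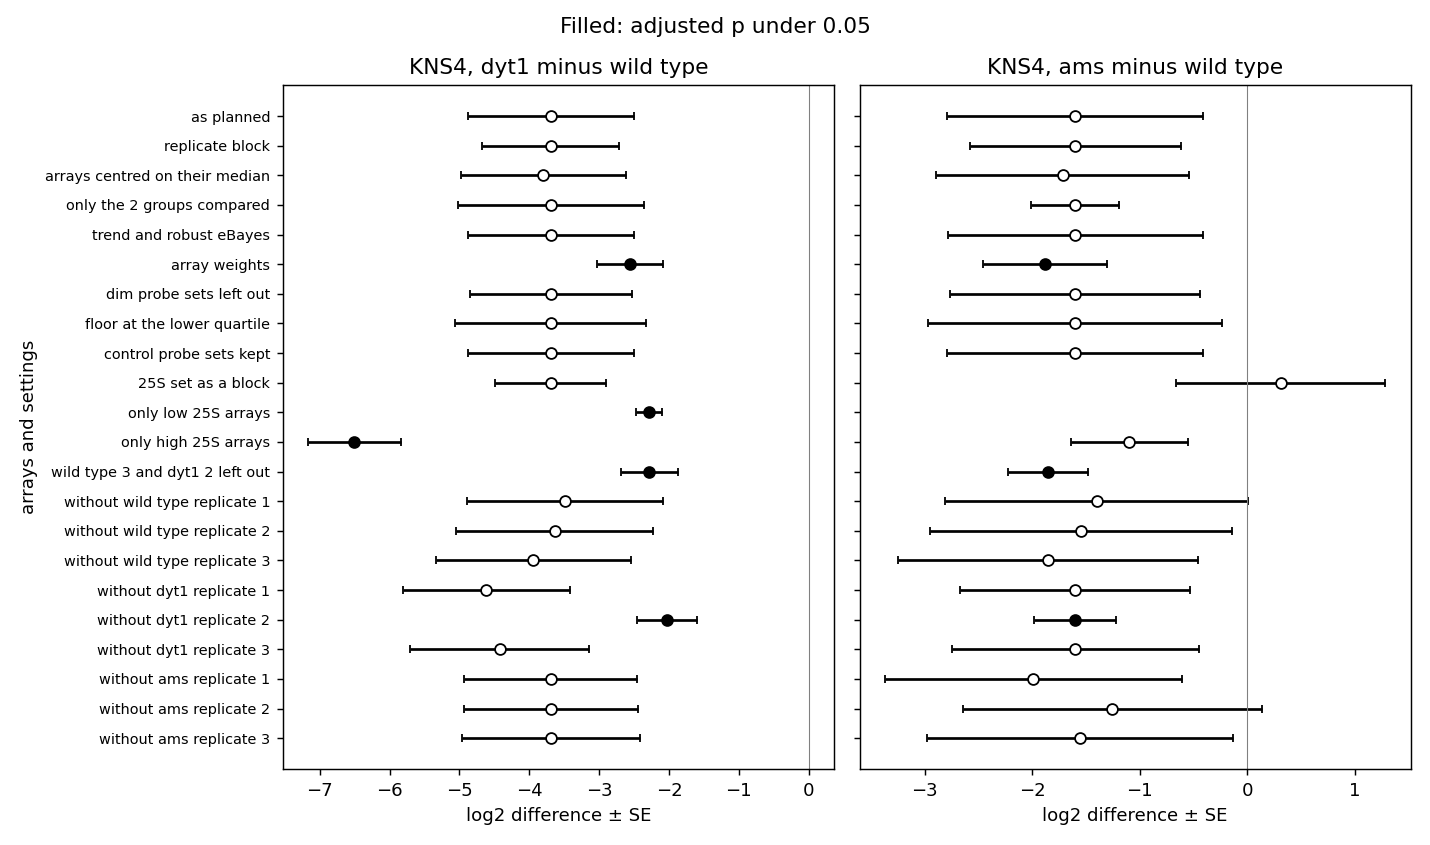
Log2 difference of KNS4 (x axis, ± SE) in dyt1 and in ams against wild type under each choice of arrays and settings (y axis); filled points have an adjusted p under 0.05. Every dyt1 value lies below 0, from -6.51 to -2.03, and the ams values lie between -1.99 and -1.25 except for -1.09 on high 25S arrays and 0.31 with the 25S set as a block.

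The tapetal gene A9 had a profile like that of KNS4, while other tapetum markers did not all share it. A9, a classic tapetum-specific gene, stood at 13.02, 12.89 and 13.07 in wild type, at 11.12, 4.68 and 10.81 in dyt1 and at 10.44, 10.33 and 9.99 in ams. In dyt1 2 the level of A9, like that of KNS4, was far under the other dyt1 arrays, and for A9 it was close to the lower quartile. The A9 differences from wild type, -4.12 in dyt1 (adjusted p = 0.251) and -2.74 in ams (adjusted p = 0.305), did not pass. ATA27, an anther beta-glucosidase, and SWEET8, a sugar transporter needed for the exine, were the other tapetum markers measured, so that 3 of 6 listed markers had a probe set. ATA27 stood at 7.16, 7.13 and 11.59 in wild type, at 4.00, 3.69 and 3.88 in dyt1 and at 11.99, 9.09 and 11.71 in ams. All dyt1 values of ATA27 were thus at background, in dyt1 1 and 3 as well, where KNS4 was above 10. ATA27 differed from wild type by -4.77 in dyt1 (adjusted p = 0.152) and by 2.30 in ams (adjusted p = 0.301), the opposite sign to KNS4 in ams. Between the mutants it was called (dyt1 minus ams -7.08, adjusted p = 0.0151), the only one of the 3 tapetum markers called in any comparison and the most negative of all probe sets there. The mean of the 3 was 10.5, 10.5 and 12.4 in wild type, 8.84, 6.21 and 8.68 in dyt1 and 11.2, 9.77 and 11.1 in ams. It was lowest in dyt1 2 and, among ams, in ams 2, as for KNS4. Unlike KNS4, the mean was higher in wild type 3 than in wild type 1 and 2. It was also higher in ams 1 and 3 than in wild type 1 and 2, where KNS4 was lower. SWEET8 alone was 11.39, 10.26 and 11.36 in dyt1 and did not pass (difference -0.68, adjusted p = 0.579).

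Of the markers of other tissue, LHCB4.2 alone passed in either mutant. The meiocyte genes SDS and ATSPO11-1, 2 of 6 listed, averaged 4.79 to 6.32 in wild type, 5.02 to 5.88 in dyt1 and 5.16 to 6.24 in ams. AtVEX1 (SWEET5), a gene of maturing pollen and the only 1 of 6 listed with a probe set, stayed between 3.81 and 4.29 on all arrays, under every lower quartile. The ovule gene INO, 1 of 6 genes of other floral organs, stood at 5.63 to 6.26 in wild type, 4.67 to 5.33 in dyt1 and 5.19 to 5.93 in ams. The antenna genes LHCB4.1 and LHCB4.2, 2 of 6 green-tissue genes, averaged 10.96 to 11.24 in wild type, 10.94 to 11.45 in dyt1 and 11.59 to 11.97 in ams. LHCB4.2 rose in ams by 1.23 (adjusted p = 0.00908), where 3.51% of all probe sets were called. The part of these markers and of the tapetum markers in the KNS4 result was not tested. The stamen and petal identity genes had no probe set in the annotation used.

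Of 20 Arabidopsis genes listed here for the GT31 family, which may not be all of its members, KNS4 and 15 relatives had a probe set of their own. DD46 (AT1G22015) was the only relative more than 1 log2 unit below wild type in either mutant. DD46 stood at 10.41, 10.42 and 9.22 in wild type, at 7.88, 5.36 and 7.73 in dyt1 and at 8.34, 5.97 and 7.60 in ams. As for KNS4, all 6 mutant arrays lay under the 3 wild-type arrays, dyt1 2 was the lowest of all and ams 2 the lowest of the ams arrays. Its log2 differences from wild type were -3.02 in dyt1 (SE 0.79, adjusted p = 0.163) and -2.71 in ams (adjusted p = 0.102), neither of which passed. In dyt1 it passed with array weights (-2.67, adjusted p = 0.00161), on low 25S arrays (-2.61, adjusted p = 0.000375) and with both wild type 3 and dyt1 2 omitted (adjusted p = 0.0295). Those fits called 8744, 4449 and 3720 of 22746 probe sets, against 44 as planned. In ams it passed with array weights (-3.07, adjusted p = 0.00228) and with the same 2 arrays omitted (adjusted p = 0.00556). These 2 fits called 8916 and 7862 probe sets, against 798 as planned. With the 25S set as a block the ams difference of DD46 was -1.49 (adjusted p = 0.274). Without dyt1 2 alone the ams difference had an adjusted p of 0.0358, and without wild type 3 alone it was -3.11 (adjusted p = 0.0469). In these 2 fits 1624 and 4146 probe sets were called. Between the mutants DD46 differed by -0.32 with a 95% interval from -2.11 to 1.48, and the sign turned without dyt1 2 (0.50) and without ams 1 (0.20).

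The remaining relatives had smaller or positive differences. In dyt1 none of the 15 relatives was called by limma, where 0.193% of all probe sets were. An unadjusted p under 0.05 was found for 2 of the 15, near the 14.5% of all probe sets, so this count says nothing particular of the relatives. The median difference was 0.24, against 0.05 over all probe sets. In ams 5 of the 15 had an unadjusted p under 0.05, against 21.6% of all probe sets, and 1 was called, against 3.51%. These counts were not tested. The relative called, AT2G32430, rose in ams. It stood at 5.48, 5.69 and 5.25 in wild type and at 7.45, 7.96 and 7.48 in ams. The difference of 2.16 (4.46-fold, SE 0.37) passed limma's test with an adjusted p of 0.0183. In dyt1 it stood at 6.67, 5.10 and 6.30, which was below ams by a difference of -1.61 (adjusted p = 0.0458). The call against wild type was lost when wild type 1 or 2 or any ams array was left out, with adjusted p values from 0.0536 to 0.0853. The call between the mutants was also lost without wild type 1 or 2, dyt1 3 or any ams array (0.0643 to 0.153), with only the compared groups in the fit (0.0607) and with a floor at the lower quartile (0.0937).

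Among the other relatives AT3G06440 was closest to a call in ams, at 7.00 to 7.22 in wild type and 7.93 to 8.01 in ams (difference 0.91, adjusted p = 0.0504). AT1G05170 stood at 7.22 to 7.96 in wild type and at 8.55 to 8.73 in ams, and at 9.17, 6.98 and 8.98 in dyt1, where dyt1 2 was again apart. AT5G62620 was lowest in wild type 1 and 2, at 7.81 and 7.69, and between 8.47 and 9.27 elsewhere. AT1G11730 ran the other way in dyt1 2, at 8.20 against 6.49 and 6.52. None of AT1G05170, AT5G62620 and AT1G11730 passed in either mutant. AT5G53340, AT4G32120 and AT2G25300 spanned at most 0.69 within each gene: 8.57 to 9.26, 8.50 to 9.18 and 7.83 to 8.52. AT1G53290, AT3G14960, AT1G77810, AT4G26940, AT1G74800 and AT1G27120 had differences from wild type between -0.25 and 0.43 in both mutants and none passed. The median over the 15 in ams was 0.27, against -0.05 over all probe sets.

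**Figure D3:**
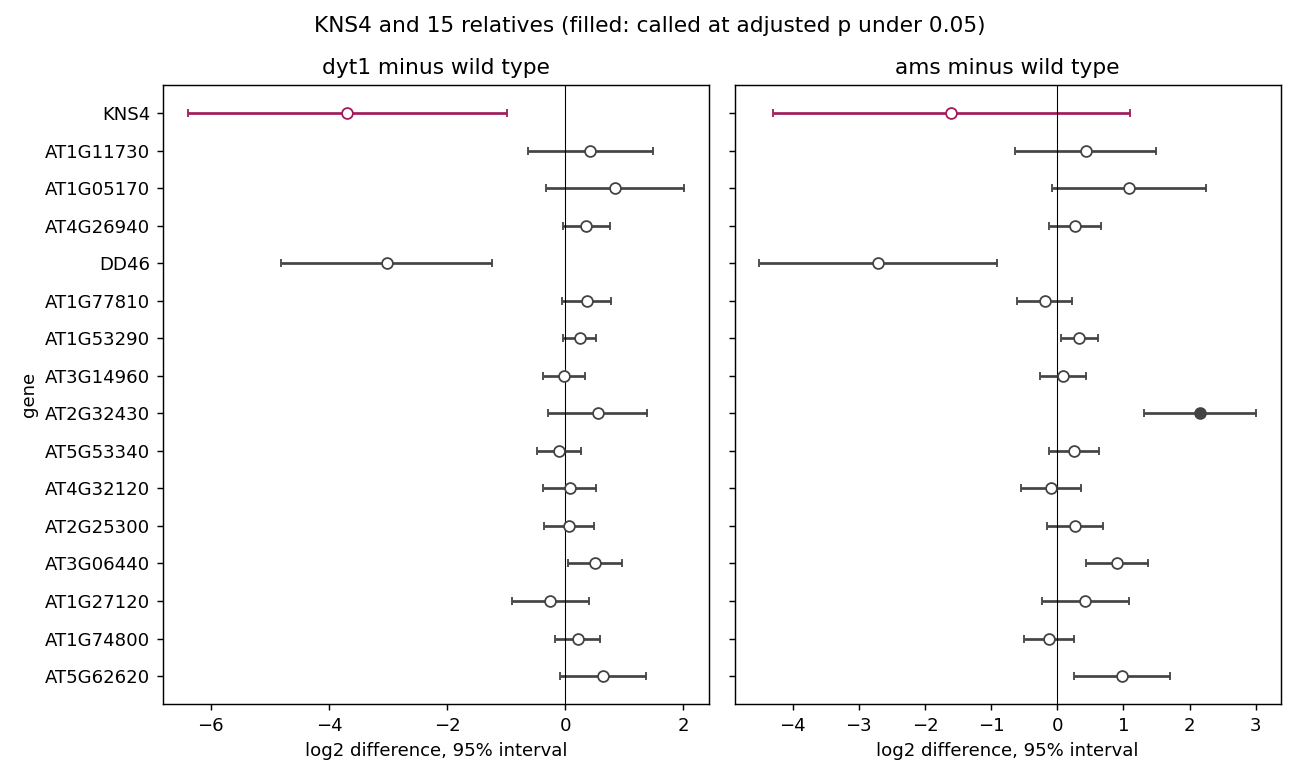
Log2 difference from wild type (x axis, with its 95% interval from limma) of KNS4 and the 15 relatives measured (y axis) in dyt1 and in ams; filled points were called at an adjusted p under 0.05. KNS4 (-3.69 and -1.60) and DD46 (-3.02 and -2.71) lie to the left, and AT2G32430 in ams (2.16) is the only one called.

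The other enzymes of arabinogalactan synthesis gave no call. Of 7 listed, 4 had a probe set, none was called by limma in either mutant, and 0 in dyt1 and 2 in ams had an unadjusted p under 0.05. Over all probe sets 0.193% and 3.51% were called and 14.5% and 21.6% had such a p, so 4 genes without a call do not stand apart. The glucuronosyltransferase GlcAT14B (AT5G15050), which caps arabinogalactan side chains with glucuronic acid, stood at 9.72, 10.03 and 8.42 in wild type, 8.53 to 8.67 in dyt1 and 8.65 to 9.19 in ams. Its wild type 3 value lay under all 6 mutant values, so the groups overlapped. GlcAT14A (AT5G39990) stood at 7.05 to 8.06 in wild type, 7.39 to 7.77 in dyt1 and 8.02 to 8.46 in ams. GlcAT14C (AT2G37585) stood at 6.56 to 7.04, 7.07 to 7.61 and 7.25 to 7.54 in the same order, and GALT29A (AT1G08280), a galactosyltransferase of the side chains, at 6.99 to 7.32, 7.12 to 7.82 and 7.02 to 7.45. The median differences of the 4 were 0.17 in dyt1 and 0.35 in ams. The 40 listed arabinogalactan proteins and the 5 UDP-galactose epimerases had no probe set in the annotation used and were not analysed here.

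Of 21 genes listed for exine, primexine and callose, KNS4 and 3 others had a probe set. None of the 3 was called by limma in either mutant, and 0 in dyt1 and 1 in ams had an unadjusted p under 0.05, counts too small to set against the 14.5% and 21.6% of all probe sets. SWEET8 stood at 11.18, 11.42 and 12.44 in wild type and at 11.31, 9.87 and 11.50 in ams. USP, a pyrophosphorylase that makes UDP-sugars, stood at 8.38 to 8.82 in wild type, at 9.59, 8.30 and 9.28 in dyt1 and at 8.37 to 8.58 in ams. SWEET13, also known as RPG2, stood at 4.21 to 5.41 in wild type, near the lower quartiles, and at 6.66, 7.07 and 5.46 in ams, where its groups did not overlap (adjusted p = 0.108). Of the 4 genes measured, KNS4 had the most negative difference in both mutants.

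Among the tapetum transcription factors, 4 of 10 listed were measured and AMS alone was called. Over all probe sets 0.193% were called in dyt1 and 3.51% in ams. AMS fell in dyt1 (log2 difference -2.93, adjusted p = 0.0288) and rose in the arrays labelled ams (1.72, adjusted p = 0.0413). The KNS4 differences, -3.69 and -1.60, had the same sign as AMS in dyt1 and the opposite sign in ams. Both AMS calls were lost without wild type 1 or 2, dyt1 3 or any single ams array. The call in dyt1 was also lost with only the compared groups in the fit (adjusted p = 0.156), and the call in ams with arrays centred on their medians (adjusted p = 0.0517). BHLH089 stood at 9.98, 10.10 and 8.60 in wild type and at 9.78, 5.78 and 9.60 in dyt1, and BHLH091 at 7.24, 7.85 and 6.30 and at 8.34, 4.73 and 8.10. In both, as in KNS4, dyt1 2 was the lowest of all 9 arrays. Unlike KNS4, both had dyt1 1 and 3 inside or above the wild-type range. SPL (SPOROCYTELESS), an early regulator of anther cell fate, stayed between 8.38 and 9.59.

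The genes next to KNS4 in the order of the RefSeq annotation were AT1G33420 and AT1G33440. AT1G33420 stood at 7.61, 7.86 and 8.32 in wild type and at 8.34, 9.22 and 8.43 in dyt1 (difference 0.73, adjusted p = 0.285), highest in dyt1 2 where KNS4 was lowest. AT1G33440 (NPF4.4), a transporter-family gene, stayed at 3.64 to 5.07, mostly under the lower quartiles. Neither passed in either mutant.

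The 10 genes with the profile most like KNS4 were found by the root mean square difference of log2 values, after subtracting each gene's own mean, over the 9 arrays and 13354 other genes. They were AT1G28375 (0.57), sks18 (0.58), AT1G24600 (0.59), AT3G48460 (0.62), AT5G24820 (0.67), A9 (0.71), LCR66 (0.79), SWEET7 (0.80), AT5G08250 (0.80) and AT3G52130 (0.82). The median over all genes was 2.12, and KNS4 itself varied by 2.07 around its mean. The annotation names sks18 as SKU5 similar 18 and LCR66 as a low-molecular-weight cysteine-rich protein also called PDF2.4, while SWEET7 is a sugar transporter. DD46 ranked 15th, at 1.05.

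These genes were chosen for their likeness to KNS4, so their differences are a description with no test. AT1G28375, the nearest, stood at 9.81, 9.94 and 9.30 in wild type, at 6.98, 3.56 and 6.70 in dyt1 and at 7.96, 6.63 and 7.61 in ams. The gene sks18 stood at 10.73, 10.53 and 9.37, at 7.55, 4.33 and 7.21 and at 9.48, 7.44 and 7.96. LCR66 stood at 10.33, 10.73 and 9.54, at 6.91, 4.07 and 6.95 and at 10.26, 8.71 and 8.35. In these 3, dyt1 2 was under its lower quartile of 4.58, whereas KNS4 was above it. The same held for AT5G24820 (3.92), SWEET7 (3.39) and AT5G08250 (4.07), which limits what sizes of dyt1 difference can be read. All 10 had their lowest value in dyt1 2. Their differences from wild type ranged from -4.22 to -2.79 in dyt1 (median -3.89) and from -3.30 to -0.38 in ams. AT3G48460 was nearly level between ams and wild type (-0.38), and AT3G52130 had the most negative ams difference (-3.30). The likeness leans on dyt1 2: with that array left out, 3 of these 10 genes were among the 10 nearest.

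**Figure D4:**
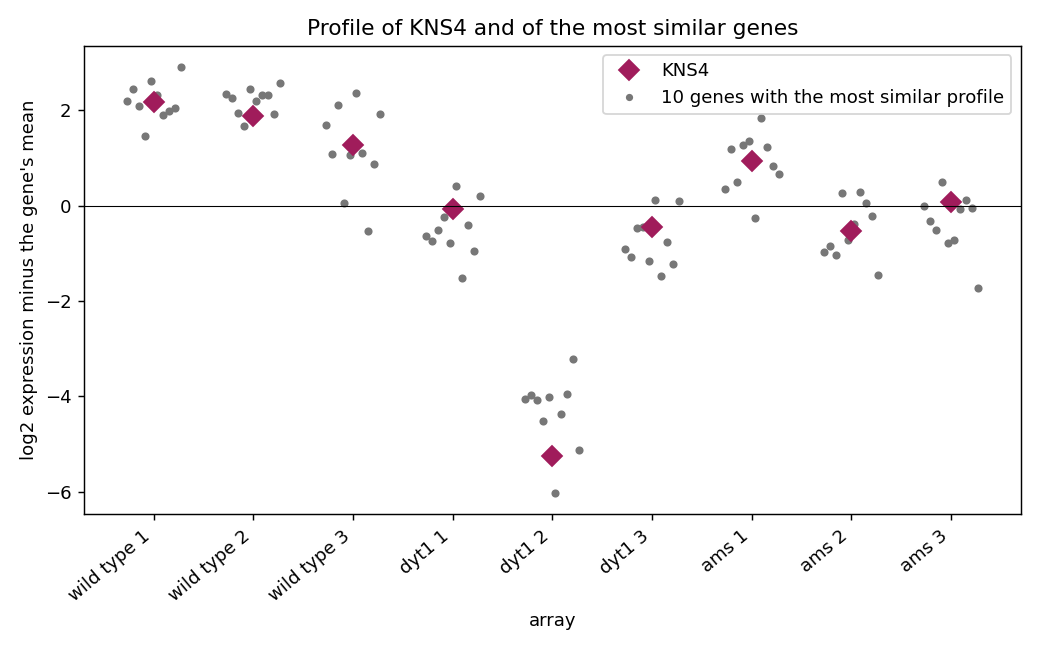
Log2 expression minus each gene's own mean (y axis) on each of the 9 arrays (x axis) for KNS4 (diamonds) and the 10 genes with the most similar profile (dots, 1 per gene). KNS4 and all 10 other genes have their lowest point in dyt1 2, and KNS4 is above its mean in wild type and in ams 1 and close to it in dyt1 1 and ams 3.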

How the data were processed

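The authors deposited log2 expression values for 22810 probe sets on 9 arrays, which come from RMA per the submitters' processing notes. No source used here gives the RMA version or the array design's genome build, so coordinates are not printed. Removing 64 control probe sets left 22746 to test. Names came from the platform annotation and RefSeq (TAIR10.1) through gene IDs; 13513 probe sets had 1 gene, and a gene took its probe set with the highest mean. A model with 1 mean per genotype was fitted to the 9 arrays together in limma 3.58.1 (R 4.3.3; lmFit, eBayes). P-values of each comparison were adjusted by Benjamini-Hochberg across the whole table, and a call is an adjusted p under 0.05. The code was tested on simulated data. Exact permutation tests were two-sided for pairs and on large F for 3 groups. Of 102 listed genes in 6 lists, 27 were measured, KNS4 included. KNS4, the lists and the rules were chosen with earlier results of these data known. Genes were named by rule: KNS4, AMS, the GT31 relatives, measured genes of short lists, both neighbours and the 10 most similar profiles. Alternatives changed the fit, the scaling, the filter and the arrays used. The p-values of limma set each difference against a spread between arrays that is pooled over the genotypes. The number of arrays limits the precision.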

Additional observations from a re-analysis of the deposited data

How the results depend on the processing

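KNS4 stayed lower in dyt1 than in wild type in all alternatives run. It passed with array weights (-2.56, adjusted p = 0.00296), on low 25S arrays (-2.28) and with both wild type 3 and dyt1 2 omitted (-2.28). Those 3 fits called 8744, 4449 and 3720 of 22746 probe sets, against 44 as planned, so such a pass was common. On high 25S arrays the difference was -6.51. Single omissions gave -4.62 to -2.03. In ams KNS4 passed with array weights (-1.88) and without wild type 3 and dyt1 2 (-1.85, adjusted p = 0.00802). Those fits called 8916 and 7862 probe sets, against 798 as planned. The ams difference of KNS4 ranged from -1.99 to -1.25 over single omissions. With the 25S set as a block, whose shift comes from wild type and dyt1 alone, it turned to 0.31. Between the mutants KNS4 differed by -5.41 on high 25S arrays. Both the -6.51 and the -5.41 set the lone dyt1 2 against others, with a spread taken from the ams arrays only. The difference between the mutants ranged from -3.02 to -0.43 over single omissions. The exact 3-group p was 0.0762 without wild type 3 and dyt1 2 and 0.00714 to 0.164 over single omissions. DD46 turned sign between the mutants with array weights (0.40), without wild type 3 and dyt1 2 (0.50), without dyt1 2 (0.50) and without ams 1 (0.20); single omissions spanned -0.98 to 0.50. The cause of these changes was not tested. Signals under the lower quartile, as of ATA27 in dyt1, limit what sizes of difference can be read.

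The replicate numbers gave no clear pairing of the arrays. Correlations of same-numbered deviations from group means ran from -0.012 to 0.24, against -0.27 to 0.14 for different numbers. Of 18 best partners, 9 had the same number, so a weak pairing is not excluded. A block for the replicate number lowered the SE of KNS4 from 1.19 to 0.98. With the replicate block KNS4 differed by -3.69 (adjusted p = 0.200), -1.60 (0.390) and -2.09 (0.269), no call of KNS4 changed, the AT2G32430 call between the mutants was lost (adjusted p = 0.0830), and 729 probe sets were called between the mutants instead of 1108. Centring arrays on their medians shifted the median of all probe sets in dyt1 from 0.05 to -0.06 and in ams from -0.05 to -0.17, without a change of sign in KNS4; calls were 10 higher and 34 lower in dyt1 (17 and 27 as planned) and 417 and 332 in ams (558 and 240).

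Over all probe sets 0.193%, 3.51% and 4.87% were called in dyt1, in ams and between the mutants. Of the 26 listed genes besides KNS4, 1, 2 and 2 were called in the same order. These counts were 12, 14 and 12 with array weights, 7, 13 and 11 with wild type 3 and dyt1 2 omitted, 4, 4 and 6 on high 25S arrays, and 0, 4 and 1 with only the compared groups. They were 7 in dyt1 on low 25S arrays, 1 in ams with centred arrays and 1 between the mutants with a floor. Single omissions gave 0 to 3, 0 to 6 and 1 to 5. Over all probe sets the 44, 798 and 1108 calls became 8744, 8916 and 8956 with array weights, 3720, 7862 and 5958 with wild type 3 and dyt1 2 omitted, and 2544, 1201 and 3487 on high 25S arrays. In dyt1 there were 8 with only the compared groups, 80 with a floor, 274 with the 25S block and 4449 on low 25S arrays. In ams there were 857 with only the compared groups and 749 with centred arrays. Between the mutants there were 1979 with only the compared groups and 824 with a floor. These counts are out of 22746 probe sets, those of listed genes out of 26, and the 2 were not tested against each other. Single omissions gave 1 to 702, 279 to 4146 and 354 to 2945. Pearson correlation kept 6 of the 10 genes most like KNS4 and centring all 10; in alternatives chosen after seeing the data, 3 remained without dyt1 2 and 2 with wild type 3 omitted as well.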
